A study of Mus musculus with 4 samples.

Results

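The genes described here are 10 markers of mouse embryonic stem (ES) cells and of the early embryo: Dppa2, Dppa3, Dppa4, Dppa5a, Lin28a, Prdm14, Nr5a2, Rif1, Fbxo15 and Tcl1. All probe sets that the platform annotation gives to these symbols were taken, 18 of the 45101 probe sets on the array, and the genes are 10 of the 18193 with a symbol of their own. RNA was compared between ES cells with homozygous, heterozygous or no knock-out of BAF250, the ARID-domain subunit of the SWI/SNF (BAF) chromatin remodelling complex. The 4 arrays were 2 homozygous lines, labelled ko1 and ko2, 1 heterozygous line and 1 wild type line, 1 array each. The cells were cultured feeder-free on gelatin, with serum and the cytokine that the labels call leukocyte inhibitory factor (LIF). The sources used here do not say whether the lines were separate clones, nor which part of the gene was altered, and a p-value therefore reflects no more than how far these samples scatter, which may be technical.

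Mouse ES cells keep the identity of the early embryo's pluripotent cells through a network of transcription factors centred on OCT4, SOX2 and NANOG. The Dppa genes (developmental pluripotency associated) were named for expression that follows that state, and several of the other genes here are bound or activated by OCT4 and SOX2. Their products do different work: they bind chromatin, protect or remove DNA methylation, block maturation of a microRNA family, or act in signalling and protein turnover. Their levels are therefore used as markers of the ES cell state, although several are not needed for it.

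The arrays differed in level, with a median deposited signal of 2.61 to 2.74 in the homozygous and heterozygous lines and 4.01 in wild type. Signals are given here after each array was scaled to the same median over the 13729 genes tested (by factors of 1.06 for ko1, 1.15 for ko2, 1.14 for heterozygous and 0.72 for wild type), and log2 differences were taken after adding a pseudocount of 0.675. A probe set is called above background where it exceeded the brightest of 27 bacterial control probe sets that are not spiked, which read 5.90 on the ko1 array, 4.38 on the ko2 array, 7.90 on the heterozygous array and 5.45 on the wild type array. The labels name BAF250 with no letter, so both genes of that name were read, and the single Arid1b (BAF250b) probe set used was below background on all 4 arrays. The brighter Arid1a (BAF250a) probe set read 7.47 in ko1 and 4.09 in ko2, against 57.5 in heterozygous and 78.4 in wild type, and was the only gene called lower in the homozygous lines than in wild type (limma adjusted p = 0.0353). The other Arid1a probe set read 18.4 in ko1 and 1.21 in ko2, against 27.5 in heterozygous and 30.9 in wild type, so the lines disagreed on it. The actin control probe sets, whose 3' to 5' ratio rises as RNA or its copy shortens, gave 5.01 for ko1, 2.61 for ko2, 2.86 for heterozygous and 1.30 for wild type. The same ratio of the Gapdh control probe sets was 2.57 for ko1, 1.21 for ko2, 1.27 for heterozygous and 1.10 for wild type.

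No marker gene passed the test between homozygous lines and wild type (limma, 0 of 10 called lower and 0 of 10 called higher), and 0.00728% of all tested genes were called lower and 0.189% higher. The values nevertheless lay mostly on one side. In 9 of the 10 genes the mean of the homozygous lines was below wild type, against 57.5% of all tested genes. The 9 include Prdm14 and Nr5a2, which were below background in ko2 and not below wild type in ko1 (log2 difference 0.36 and 0.02). In 6 of the 10 neither homozygous array reached the heterozygous or the wild type one, a pattern found in 21.5% of all tested genes. The 6 include Rif1, which was below background in ko1. The median log2 difference of the 10 genes was -1.09, beside -0.18 for all tested genes, and the single genes ran from -1.64 for Rif1 to 0.46 for Dppa3. At an unadjusted p under 0.05 only Lin28a remained, 1 gene of 10, against 2.28% of all tested genes that were lower at that level. Dppa2 stood just above that level (limma unadjusted p = 0.0503). When all probe sets past the filter were tested, the same Dppa2 probe set fell below it (limma unadjusted p = 0.0315, adjusted p = 0.730). Which genes reach that level thus depends on the fit.

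**Figure D1:**
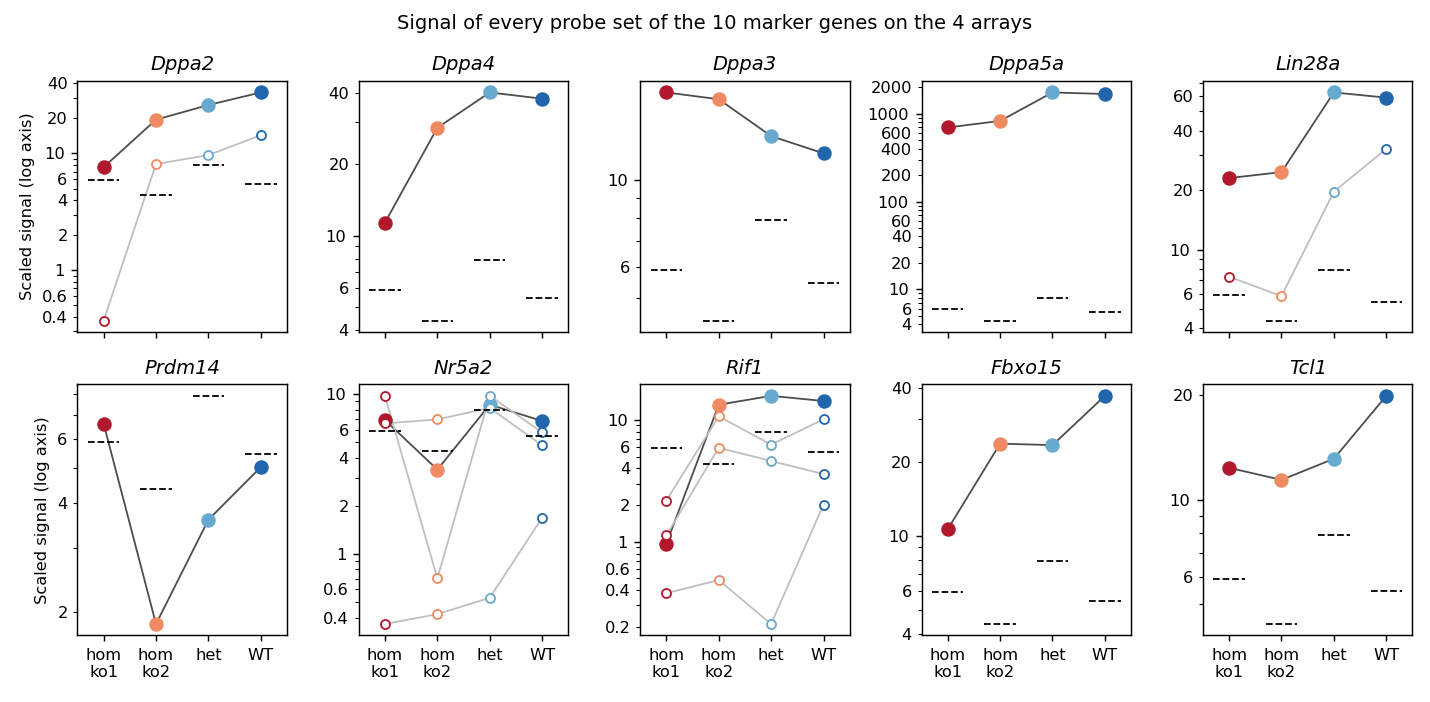
Scaled signal (log axis) of all 18 probe sets of the 10 genes on the arrays of homozygous ko1, homozygous ko2, heterozygous and wild type cells. Filled points are the probe set used for the gene and open points the others; dashed lines mark the background of each array. Lin28a and Dppa5a are lower in both homozygous arrays than in the other 2, and Dppa3 is higher in both.

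**Figure D2:**
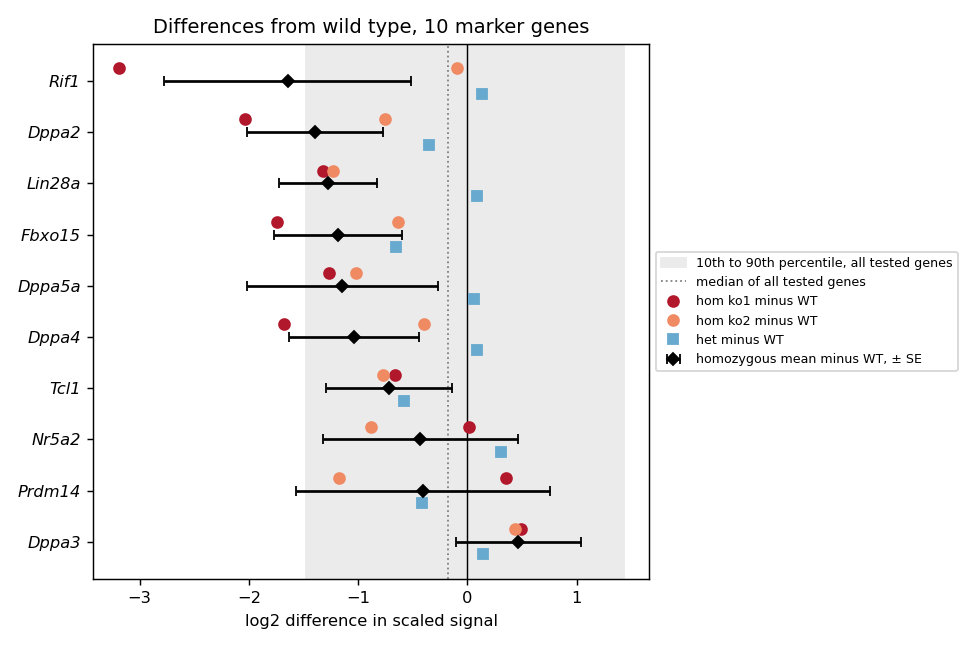
Log2 difference in scaled signal from wild type for each gene (horizontal axis), for the mean of the homozygous lines with its SE (diamonds), for each homozygous line (circles) and for the heterozygous array (squares). The grey band spans the 10th to 90th percentile of all tested genes; the homozygous means run from -1.64 to 0.46.

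Lin28a encodes the protein that blocks maturation of the let-7 microRNAs, which otherwise drive cells out of the undifferentiated state. Its brighter probe set (1437752_at) read 23.0 in ko1 and 24.7 in ko2, against 62.4 in heterozygous and 58.7 in wild type. The homozygous lines lay close together and both well below the other arrays, while heterozygous and wild type were nearly equal. The log2 difference from wild type was -1.28 ± 0.45 (SE), a 2.42-fold lower signal, with a 95% interval from -2.28 to -0.27 (limma unadjusted p = 0.0176, adjusted p = 0.685). Against heterozygous it was -1.36 ± 0.45 (unadjusted p = 0.0127, adjusted p = 0.591). The other Lin28a probe set (1421749_at) read 7.30 in ko1 and 5.83 in ko2, against 19.7 in heterozygous and 32.3 in wild type. It too had both homozygous arrays lowest and above background, and here heterozygous lay between. Tested among all 22140 probe sets past the filter, its difference from wild type was -2.20 ± 0.62 (limma adjusted p = 0.217). Lin28a thus had the same direction on both of its probe sets, and neither passed the test.

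Dppa5a (also known as Esg1) encodes a small KH-domain protein that binds RNA in early embryos and ES cells. It read 699 in ko1 and 831 in ko2, against 1755 in heterozygous and 1685 in wild type. The homozygous arrays again lay together and below the other arrays, which were level with each other. The difference from wild type was -1.14 ± 0.87 (limma adjusted p = 0.887) and from heterozygous -1.20 ± 0.87 (limma adjusted p = 0.836). Its 95% interval against wild type ran from -3.09 to 0.80.

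Dppa2 and Dppa4 encode SAP-domain proteins that bind chromatin as a pair, keep certain developmental promoters free of DNA methylation and help to activate genes of the 2-cell embryo. They are neighbours on chromosome 16, with 0 protein-coding genes between them in the RefSeq gene table of GRCm38.p6. Dppa2 read 7.63 in ko1 and 19.5 in ko2, against 26.0 in heterozygous and 33.3 in wild type. Dppa4 read 11.4 in ko1 and 28.5 in ko2, against 40.1 in heterozygous and 37.8 in wild type. In both genes ko1 was lowest, ko2 lay between ko1 and the other arrays, and the ko1 minus ko2 difference was -1.28 on the log2 scale. The homozygous mean differed from wild type by -1.39 ± 0.63 for Dppa2 (limma adjusted p = 0.831) and by -1.04 ± 0.59 for Dppa4 (limma adjusted p = 0.868). The second Dppa2 probe set read 0.370, below background, in ko1 and 8.12 in ko2, against 9.69 in heterozygous and 14.3 in wild type. With ko1 set at its background, that probe set was 2.07-fold lower in the homozygous lines than in wild type.

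Dppa3 (Stella, or PGC7) is a maternal and germline protein that holds off DNA methylation by UHRF1 and DNMT1 and shields the maternal genome from demethylation in the zygote. It was the gene that stood the other way. It read 16.7 in ko1 and 16.1 in ko2, against 12.9 in heterozygous and 11.7 in wild type. Both homozygous arrays were above both others, as in 18.1% of all tested genes, and the 2 lines were nearly equal. The difference from wild type was 0.46 ± 0.57 (limma adjusted p = 0.911), with a 95% interval from -0.81 to 1.74. In the signals as deposited it was -0.12, where the median gene stood at -0.75; no member was called lower there either, beside 0.612% of all tested genes. Of the Dppa genes, then, Dppa2, Dppa4 and Dppa5a lay below wild type in both homozygous lines and Dppa3 above it, with none of these differences past the test.

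The transcription factor genes gave dim signals. Prdm14, which encodes a repressor of DNA methyltransferase and FGF receptor genes in ES cells, read 6.62 in ko1 and 1.86 in ko2, against 3.60 in heterozygous and 5.02 in wild type. Only ko1 was above background, and the lines lay on either side of wild type, so no direction can be given (-0.41 ± 1.16, limma adjusted p = 0.959). Nr5a2, which encodes the orphan nuclear receptor LRH-1, an activator of the OCT4 gene Pou5f1, had 4 probe sets. The one used, brightest on average in the deposited signals though not after scaling, read 6.87 in ko1 and 3.37 in ko2, against 8.58 in heterozygous and 6.78 in wild type, with ko2 below background (-0.43 ± 0.89, limma adjusted p = 0.943). A further Nr5a2 probe set, 1456521_at, read 6.55 in ko1 and 6.94 in ko2, against 8.19 in heterozygous and 4.77, below background, in wild type. Another, 1449706_s_at, read 9.70 in ko1 and 0.703 in ko2, against 9.74 in heterozygous and 5.75 in wild type. Thus 1 Nr5a2 probe set stood above wild type and 2 below among the 3 past the filter on dim signals, so the direction depends on the probe set chosen, and ko2 was the low array on 2 of them. The other Nr5a2 probe set was below background on all 4 arrays.

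Rif1 encodes a large protein that acts with 53BP1 at DNA double-strand breaks and sets the timing of DNA replication, and that is abundant in ES cells. Its brightest probe set (1429491_s_at) read 0.964 in ko1 and 13.3 in ko2, against 15.8 in heterozygous and 14.3 in wild type. The ko1 array alone stood apart, below background, while ko2 was level with the other arrays. The difference from wild type was -1.64 ± 1.13 (limma adjusted p = 0.881), made of -3.19 in ko1 and -0.10 in ko2. With ko1 set at its background it came to 1.61-fold. Among all tested genes, 0.67% had a ko1 minus ko2 difference as low as that of Rif1 (-3.09). A second Rif1 probe set (1437179_at) read 2.17 in ko1 and 10.7 in ko2, against 6.27 in heterozygous and 10.1 in wild type, so ko1 was again lowest and ko2 was not below wild type. Another (1442939_at) read 1.13 in ko1 and 5.91 in ko2, against 4.60 in heterozygous and 3.59 in wild type, above background in ko2 alone. The remaining one was below background on all 4 arrays.

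Fbxo15 encodes an F-box protein, the substrate receptor of an SCF ubiquitin ligase, and is a known target of OCT4 and SOX2 that was used to select reprogrammed cells. It read 10.7 in ko1 and 23.8 in ko2, against 23.5 in heterozygous and 37.3 in wild type. The ko2 and heterozygous arrays were level, with ko1 below them and wild type above. The homozygous difference was -1.19 ± 0.58 from wild type (limma adjusted p = 0.86) and -0.54 ± 0.58 from heterozygous (limma adjusted p = 0.868). Tcl1, which encodes a coactivator of the kinase AKT, read 12.4 in ko1 and 11.4 in ko2, against 13.1 in heterozygous and 19.9 in wild type. Its 3 arrays with a disrupted allele lay together, below wild type. The difference from wild type was -0.72 ± 0.58 (limma adjusted p = 0.887), and that from heterozygous was -0.14 ± 0.58 (limma adjusted p = 0.967).

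**Figure D3:**
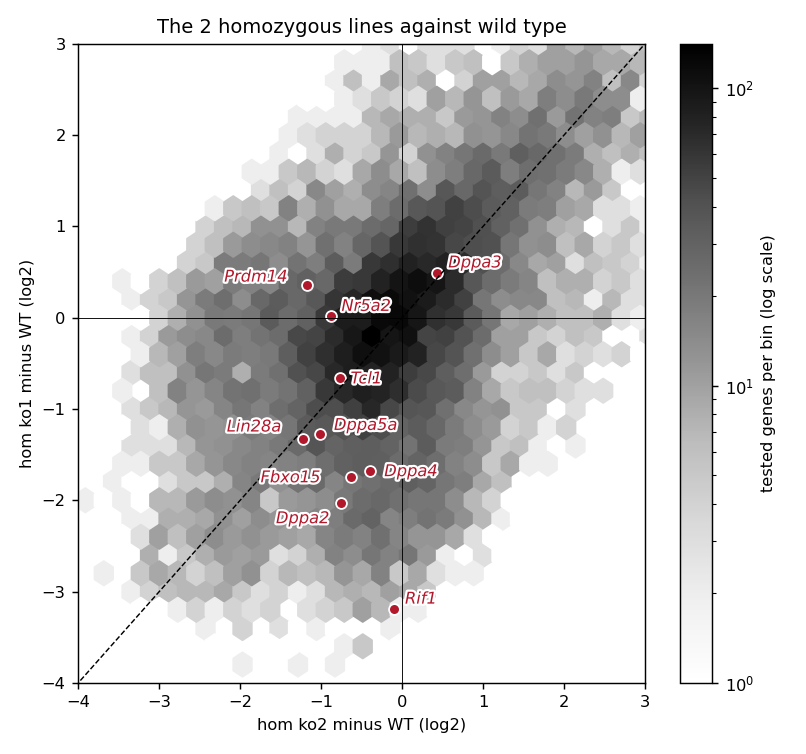
Log2 difference from wild type in homozygous ko2 (horizontal axis) and homozygous ko1 (vertical axis) for all tested genes (grey, darker where more genes fall) and the 10 marker genes (red). Both axes share the 1 wild type array, which alone spreads points along the dashed line of equal values; Rif1 lies at -3.19 in ko1 and -0.10 in ko2, and Lin28a close to the line.

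The genes thus differed in how well the homozygous lines matched, as the plot of the 2 lines against wild type shows. The lines were within 0.25 of each other on the log2 scale for Dppa3, Lin28a, Tcl1 and Dppa5a. The ko1 minus ko2 difference was -1.11 for Fbxo15, -1.28 for Dppa4 and Dppa2 and -3.09 for Rif1, and it was 0.90 for Nr5a2 and 1.53 for Prdm14. In all, ko1 lay below ko2 in 6 of the 10 genes, against 46.5% of all tested genes. Over the 10 genes the median difference from wild type was -1.30 in ko1 and -0.76 in ko2. The actin and Gapdh ratios were both highest in ko1, the array in which Dppa2, Dppa4, Rif1 and Fbxo15 were lowest. The part of RNA or copy length in these values was not tested. For Lin28a and Dppa5a the difference was about as large in ko2 alone (-1.23 and -1.02) as in ko1 (-1.33 and -1.27).

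The comparison with the heterozygous line shares both homozygous arrays with the one above. None of the 10 genes passed it in either direction (limma), beside 0.00728% of all tested genes called lower and 0.204% called higher. At an unadjusted p under 0.05 there was again 1 gene, Lin28a, against 1.9% of all tested genes that were lower at that level. The homozygous mean was below heterozygous in 8 of the 10 genes, against 52.9% of all tested genes, with a median log2 difference of -0.89 beside -0.08 for all tested genes. Dppa3 (0.33) and Prdm14 (0.01, just below 0 when arrays were scaled to a common trimmed mean) were the others.

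The heterozygous and wild type lines had 1 array each, so their difference has no replicate check and is given without a test. It ran from -0.65 for Fbxo15 to 0.31 for Nr5a2, with a median of 0.07 beside -0.07 for all tested genes. The log2 difference was below 0 for Fbxo15, Tcl1, Prdm14 and Dppa2, and between 0.06 and 0.31 for the other 6 genes, Dppa5a, Lin28a, Dppa4, Rif1, Dppa3 and Nr5a2. In the signals as deposited all 10 differences were below 0, where the median gene stood at -0.68. An order of homozygous lines lowest, heterozygous next and wild type highest held in 2 genes, Dppa2 and Tcl1, while 11% of all tested genes had it.

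The lines were also read with 8 defining ES cell markers, which were above background on all 4 arrays. Summed, they came to 125 in ko1 and 172 in ko2, against 408 in heterozygous and 622 in wild type, with Utf1 and Pou5f1 the largest parts of the wild type sum (223 and 153). Of the 8, 7 had both homozygous arrays below both others, against 21.5% of all tested genes. The other was Klf4, a transcription factor gene, at 32.8 in ko1 and 32.1 in ko2, against 17.4 in heterozygous and 15.4 in wild type. Of 23 tested genes of the wider pluripotency network, which include the 8 markers above, none passed the test against wild type (limma). At an unadjusted p under 0.05, 14 of the 23 were lower, against 2.28% of all tested genes. The median log2 difference of the 23 was -1.56. Both homozygous arrays lay below both others in 16 of them, against 21.5% of all tested genes. The largest differences from wild type were those of Fgf4, Pou5f1 and Utf1. Fgf4, a growth factor gene activated by OCT4 and SOX2, read 6.08 in ko1 and 4.89 in ko2. It read 37.7 in heterozygous and 54.5 in wild type (limma adjusted p = 0.0694). Pou5f1 itself read 12.4 in ko1 and 48.3 in ko2, against 113 in heterozygous and 153 in wild type. Its difference was -2.60 ± 0.68 (limma adjusted p = 0.323), larger in ko1 than in ko2. Utf1, a chromatin factor of ES cells, had a difference of -2.48 ± 0.45. Markers of endoderm, a cell type that ES cultures can form, were read in the same way. Of 22 tested, 9 rose and none fell in the homozygous lines against wild type, beside 0.189% of all tested genes called higher. The median log2 difference of these markers was 3.57, or 3.09 with genes below background in a group set at that background. The sum of their signals was 8202 in ko1 and 4859 in ko2, against 170 in heterozygous and 156 in wild type; Sparc alone, a matrix protein gene, gave 4119 and 2645 of the sums in the homozygous lines, and 2 of the 24 markers, Afp and Apoa1, were below background on all 4 arrays. Col4a2 and Col4a1, chains of basement membrane collagen, were at least 109-fold and, as measured, 118-fold higher than in wild type (limma adjusted p = 0.000158 and 0.000406). Pth1r, a hormone receptor gene, was at least 17.9-fold higher and Srgn, a proteoglycan gene, at least 18.4-fold. Cubn, Ttr and Sox17 were below background in heterozygous and wild type. Their signals were at least 9.99-fold, 3.90-fold and 8.11-fold higher than in wild type, without passing the test against it. Sox17 passed the test against heterozygous (limma adjusted p = 0.0130). In bulk RNA, fewer cells that express a marker and less RNA per cell cannot be told apart, and the part of these endoderm markers in the values of the 10 genes was not tested. The summed fibroblast markers (11 on the array) were 58.5 in ko1 and 73.2 in ko2, against 37.9 in heterozygous and 34.8 in wild type. None of 9 tested was called by limma, beside 0.189% of all tested genes called higher. At an unadjusted p under 0.05, 2 of the 9 were higher. The share of all tested genes higher at that level was not counted, so no weight is given to this. Only 1 of the 9, Col1a2, was above background on the homozygous and wild type arrays (1.89 ± 0.69). Twist1 was at least 1.17-fold higher, Dcn was above background in ko1 alone, and Lum was at least 1.09-fold lower. With genes below background set at that background, the median of the list was 0.

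Trophoblast markers summed to 518 in ko1 and 422 in ko2, against 151 in heterozygous and 98.5 in wild type. The epithelial keratins Krt8 and Krt18 gave 468 and 369 of the homozygous sums, against 114 and 51.3 of those of heterozygous and wild type, and the median log2 difference of the list was -0.12. Of 11 tested, 1 rose, Krt18 (3.15 ± 0.45, limma adjusted p = 0.0242), beside 0.189% of all tested genes called higher. Krt8 had a difference of 2.68 ± 0.51 (limma adjusted p = 0.0964). Elf5 was above background in ko2 alone, and Tfap2c was 1.58-fold lower with ko2 set at background. Primed epiblast markers, of the state that follows the ES cell state in the embryo, summed to 32.7 in ko1 and 38.2 in ko2, against 138 in heterozygous and 95.7 in wild type. Dnmt3b, a DNA methyltransferase gene, made up 89.5 of the heterozygous and 33.1 of the wild type sum. None of 7 tested was called by limma, and 2 were lower at an unadjusted p under 0.05, against 2.28% of all tested genes. Otx2, Foxd3 and Sox3, below background in both homozygous lines, were at least 3.30-fold, 2.20-fold and 2.17-fold lower. The median log2 difference was -2.01, or -0.78 with genes set at background where they were below it.

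**Figure D4:**
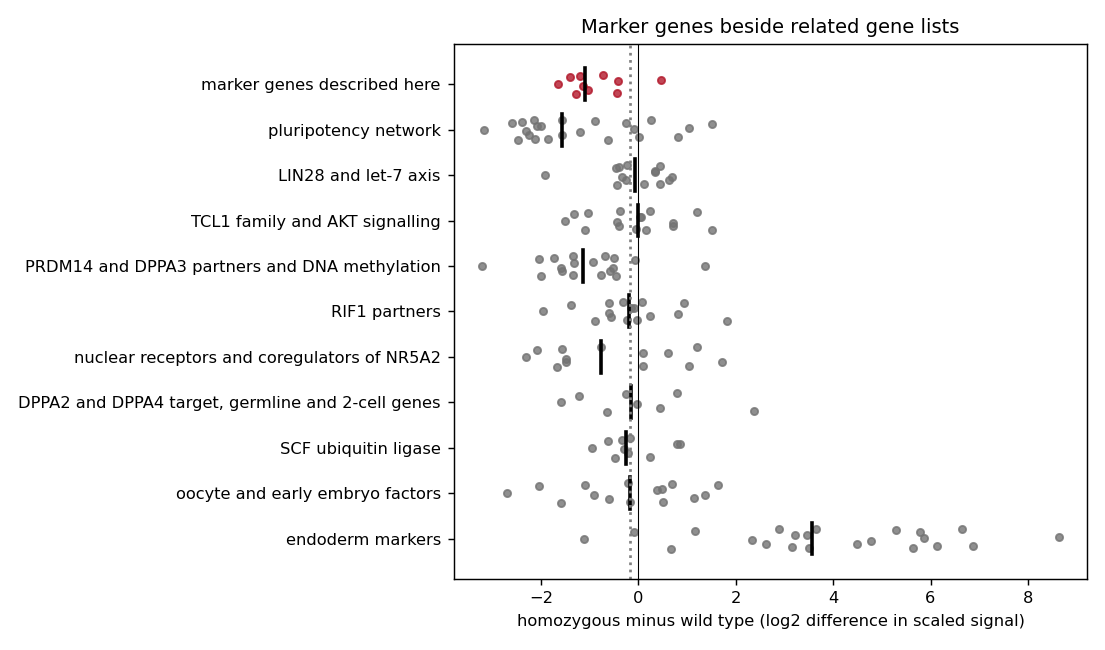
Log2 difference, homozygous minus wild type, of the 10 marker genes (red) and of the tested genes of related lists (grey), with black bars at the median of each and a dotted line at the median of all tested genes. Values of genes below background in a group depend on the pseudocount. The medians are -1.09 for the marker genes, -1.56 for the pluripotency network and 3.57 for endoderm markers.

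Genes that work with the products of the 10 markers were read from lists of partners and targets. No member of the 8 further lists passed the test against wild type or against heterozygous (limma). At an unadjusted p under 0.05 against wild type, 2.28% of all tested genes were lower. That held for 5 of 18 genes in the PRDM14 and DPPA3 list and 3 of 13 in the nuclear receptor list. It also held for 1 of 16 RIF1 partners, 1 of 15 oocyte genes and none in the other 4 lists. No gene of these lists was higher at that level. Some genes are also in the pluripotency network above, so these counts are not separate from its count. They are Esrrb and Nr0b1 of the nuclear receptor list and Zfp57 of the PRDM14 and DPPA3 list. Eras of the TCL1 list and Trim71 of the LIN28 list are likewise in both. For the LIN28 and let-7 axis the median log2 difference from wild type was -0.06 over 14 genes. Named from it were Myc, a let-7 target and growth regulator (0.353 and 2.56, below background in both homozygous lines, against 14.6 in heterozygous and 6.23 in wild type), Lin28b, the paralogue of Lin28a (above background in ko1 alone) and Ago2, the small-RNA slicer (0.62 ± 0.53). The median of that list was close to that of all tested genes, with Lin28a itself at -1.28.

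The list of PRDM14 and DPPA3 partners and DNA methylation genes had a median of -1.13 over 18 genes. It was -0.72 with genes set at background where they were below it. Both homozygous arrays were lowest in 11 of the 18, against 21.5% of all tested genes. Tet1, a 5-methylcytosine oxidase, read 1.10 in ko1 and 9.55 in ko2, against 15.1 in heterozygous and 38.6 in wild type, 5.14-fold lower than wild type with ko1 set at background. Cbfa2t2, the corepressor that binds PRDM14, read 7.03 in ko1 and 10.96 in ko2, against 12.9 in heterozygous and 38.1 in wild type (-2.03 ± 0.60, limma adjusted p = 0.496). Zfp57, which guards imprints, was 3.63-fold lower with ko2 set at background. In the list of nuclear receptors and coregulators around NR5A2 the median was -0.77 over 13 genes, but 0 with genes set at background where they were below it, since only 6 were above background on the homozygous and wild type arrays. It held Esrrb (-2.31 ± 0.49, limma adjusted p = 0.153) and Nr0b1 (-2.07 ± 0.59), both orphan receptors of the ES cell network. Rxra, the retinoid X receptor gene, stood the other way, at least 2.28-fold higher.

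The remaining lists had medians near that of all genes. It was -0.19 over 16 RIF1 partners, where the helicase gene Blm was at least 3.63-fold lower, the shieldin gene Shld2 at least 2.07-fold higher and the telomere factor gene Terf2 1.46-fold lower with ko2 set at background. It was -0.00 over 16 genes of the TCL1 family and AKT signalling. There Eras was at least 1.51-fold higher and Akt2 was 2.06-fold lower with ko1 set at background, while Rictor was below background in the homozygous and wild type lines, so that no difference is given. It was -0.26 over 10 SCF ubiquitin ligase genes, with Fbxo5 at -0.96 and Cops5 at 0.79 on the log2 scale and Skp2 at least 1.21-fold higher. In the list of germline genes, genes of the 2-cell embryo and DPPA2 or DPPA4 targets, none of the 8 tested was above background on every homozygous and wild type array. Zfp352 was 2.74-fold lower with ko2 set at background, and the signals of Stk31 and Dazl give no fold. Of 15 oocyte and early embryo genes, 3 were above background on those arrays. Bmp15 was at least 1.97-fold lower, Tle6 at least 1.36-fold lower and Nobox at least 1.23-fold higher. In these 2 lists, 8 and 6 genes were below background on all 4 arrays.

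Likeness of pattern was measured as the Euclidean distance between mean-centred log2 signals over the 4 arrays, for the 2 marker genes with the largest difference from wild type. Nearest to Rif1 were Plin5 (distance 0.09), Pf4 (0.17) and Cdkn1c (0.17), where the median tested gene lay at 3.04. Nearest to Dppa2 were Zcchc10 (0.10), Ier2 (0.11) and Hsp90aa1 (0.12), where the median tested gene lay at 1.93. Rif1 and its 3 neighbours were all below background in ko1, so these matches include values not above background, and Zcchc10 was below background on all 4 arrays. With 4 points a pattern, such matches describe these arrays only.

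Promoter sequences of GRCm38.p6 from RefSeq, 250 bases before to 50 bases after a transcript start, were matched for 3 of the genes, Lin28a, Tcl1 and Nr5a2. Those of Lin28a and Tcl1 are printed because these genes lay below both other arrays in both homozygous lines and the lines were close together. Both lie on the minus strand, at chr4:134018767-134019066 and chr12:105222688-105222987, and capitals mark matches to the motifs searched on both strands. 
Lin28a: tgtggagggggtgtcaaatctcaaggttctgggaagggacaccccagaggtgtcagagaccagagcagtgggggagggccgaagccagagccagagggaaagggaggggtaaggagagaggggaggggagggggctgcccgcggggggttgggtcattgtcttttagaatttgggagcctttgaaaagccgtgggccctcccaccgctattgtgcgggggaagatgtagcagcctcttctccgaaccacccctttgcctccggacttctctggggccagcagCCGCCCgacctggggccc
Tcl1: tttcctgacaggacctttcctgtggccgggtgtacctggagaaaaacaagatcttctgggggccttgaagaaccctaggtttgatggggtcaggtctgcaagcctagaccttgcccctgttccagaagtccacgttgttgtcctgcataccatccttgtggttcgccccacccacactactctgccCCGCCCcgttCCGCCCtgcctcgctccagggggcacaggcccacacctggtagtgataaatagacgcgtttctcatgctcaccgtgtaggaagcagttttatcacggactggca
The motifs were the OCT4 octamer ATGCAAAT, the SOX core ACAAAG, the NR5A half-site AAGGTCA, the GC box GGGCGG, the CCAAT box CCAAT and the TATA box TATAAA. They occur in 1.74%, 18.7%, 4.72%, 35.7%, 37.4% and 13.6% of the 32851 windows in the table, in that order, and none overlaps another in these 2 windows. The GC box was the only one found, read as CCGCCC on the printed strand: once in Lin28a, from base 33 after the start, and at 2 places in Tcl1, beginning 64 and 54 bases before it. G and C made up 63.3% of the Lin28a window and 56.7% of that of Tcl1, beside a median of 52.7% over all windows. Nr5a2 had 2 windows in the table, with 42% and 49% G and C; the second held a match to ACAAAG and a match to CCAAT, and the first a match to TATAAA. Such matches are descriptions of these letters and not evidence of binding.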

How the data were processed

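Per the labels' protocols, biotin-labelled cRNA was made from 8 microgram of total RNA for each of the 4 lines and read on Affymetrix arrays. The authors deposited signal intensity values per probe set on a linear scale, made with MAS5 per the submitters' processing notes; no version or settings of it are stated there. Gene names came from the platform annotation: 34945 probe sets that are not controls had 1 symbol, 932 had several and 9224 had none or were controls. Of the first, 34741 matched the RefSeq gene table of GRCm38.p6 by gene ID, and 0 symbols needed an update.

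Each gene was represented by its probe set of highest mean deposited signal. Genes above a mean of 2.55, the 40th percentile of all probe sets, were tested, and 16 of the 18 member probe sets passed. All 10 genes had a probe set that passed. Arrays were scaled to a common median over the tested genes, since the deposited values had no common level, and log2(signal + 0.675) was fitted with limma 3.58.1 in R 4.3.3 (1 mean per genotype, eBayes with an intensity trend, Benjamini-Hochberg over all 13729 genes, threshold 0.05). The pseudocount makes fold changes of dim genes smaller than those of the scaled signals. Below background a fitted fold can still exceed the bound, as for Rif1 (3.13-fold fitted, 1.61-fold with ko1 set at background). Only ko1 against ko2 gives a residual (1 degree of freedom), with 9.90 in total with the information borrowed across genes; the single wild type and heterozygous arrays are assumed to vary likewise. The fit was also run on simulated data in which all 4 arrays had the same spread, so that run cannot check this assumption. The changes set in it were larger than the homozygous mean difference of any member. A fold against a group wholly below background is given as a bound, computed from that background, and where 1 homozygous array was below it that array was set there. Medians and counts of lists use the fitted values unless stated. No depth applies to arrays, and their number limits the precision.

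Named genes were every member, and from each list the called genes (the 4 largest where there were over 6) and the 3 largest differences among the others; the nearest genes in pattern were taken for the 2 members of largest difference. Sparc, Afp, Apoa1, Klf4, Lum and Dnmt3b were named outside that rule after their values were seen. The members and lists were chosen with earlier results of these data known.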

Additional observations from a re-analysis of the deposited data

How the results depend on the processing

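No member gene was called lower or higher than wild type under any of 12 alternatives, or than heterozygous under any of 9: deposited values without scaling, quantile normalization, a common trimmed mean, a smaller pseudocount (divided by 16) or a larger one (40th percentile), no filter on dim genes, probe sets averaged, all probe sets tested, no intensity trend and, against wild type, 2 groups (homozygous against heterozygous and wild type together), also without either homozygous line. The 2 settings that combine these groups with a line left out were chosen after seeing the data. Over all tested genes the share called lower than wild type ran from 0% to 0.612%, 84 genes at the highest, in the deposited values, beside 1 gene (0.00728%) in the values reported and 46 in 2 groups, and the share called higher from 0% to 0.925%, beside 0.189%. Against heterozygous these shares ran from 0% to 0.0583% and from 0% to 0.699%. The lowest adjusted p of a member was 0.0702, for Rif1 in 2 groups without ko2, where the low ko1 array stands alone; without ko1 it was 0.941. For Lin28a the adjusted p ran from 0.0732 (2 groups) to 0.845, and its difference from -1.89 to -1.23. Of 140 single values, 136 kept their direction, and none that was tested passed the threshold. Many of these directions could not turn. Without the filter, without the intensity trend or with all probe sets tested, each difference is that of the main fit. Averaging probe sets likewise changes nothing for genes with a single probe set. The count of kept directions is therefore no measure of robustness. Dppa3 turned to -0.12 in the deposited values, where the median gene stood at -0.75, and Prdm14 to 0.56 in 2 groups without ko2. With ko1 as the only homozygous array, Prdm14 turned to 0.36 and Nr5a2 to 0.02. The median heterozygous minus wild type difference, relative to the median gene, was 0.15 and ran from -0.32 (probe sets averaged) to 0.24. With only 1 homozygous array left and 1 mean per genotype, no test against wild type remains; the member differences then were those of each line. No paired analysis was possible because the heterozygous and wild type groups have 1 array each, so that groups share fewer than 2 replicate numbers. Prdm14, Nr5a2 and part of the Rif1 probe sets were near background, where the arrays give little more than bounds.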

Other observations

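Lin28a and Arid1a lie on the same chromosome, 4, with 4 protein-coding genes between them in the RefSeq gene table of GRCm38.p6. Of these, 1 was tested: Dhdds, which encodes a subunit of the enzyme that makes dolichol precursors. Dhdds read 13.0 in ko1 and 4.36 in ko2, against 7.21 in heterozygous and 9.67 in wild type (log2 difference from wild type -0.31). Its ko2 and heterozygous values were below background, so no direction is drawn from it. This was looked at after the values of Lin28a were seen, and no test was made of it.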
